A study of Mus musculus with 6 samples.

Results

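The antibody genes of the mouse, together with the gene for the joining chain of polymeric antibodies (Jchain), were followed in poly(A) RNA of naive CD4+ T cells from spleen. All mice were wild-type C57BL6/J: 3 libraries came from mice that had received rapamycin, which inhibits the kinase mTOR, and 3 from mice that were not treated. Dose, duration and the sorting scheme are not given in the sources used here, nor is it stated whether the libraries of one group came from separate mice, so the p-values reflect variation among these libraries that may be technical. The genes were chosen by annotation and abundance: every mm10 gene of an immunoglobulin type, and Jchain, with a summed expected count of at least 10 over the 6 libraries. Of 433 genes of these types, out of 55487 genes in the tables, 112 met the rule. They comprised 43 heavy chain V genes, 56 kappa and 3 lambda V genes, 2 unswitched and 3 switched heavy chain constant genes, the kappa constant gene, 3 lambda constant genes and Jchain. The rule used the sum over all libraries and not the difference between groups, so the totals are given only as a description.

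An antibody is built from heavy and light chains, each with a constant region and a variable region assembled in developing B cells. The variable region is joined from V, D and J segments in heavy chains, and from V and J segments in light chains. B cells that have not met antigen carry IgM and IgD, which come from the neighbouring genes Ighm and Ighd by alternative splicing and polyadenylation of one primary transcript. Class switch recombination later replaces these by a downstream gene such as Ighg3, Ighg2b or Igha, and plasma cells, the antibody-secreting end stage, make large amounts of the secreted form together with Jchain. T cells rearrange T cell receptor genes in place of antibody genes.

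Stretches of sequence show what sets apart the transcripts on which the results turn. IgM and IgA end, in their secreted forms, in a short tail that takes up the J chain. The coding bases of this tail, with those just before it and the stop codon, are shown for Ighm (GRCm38, chr12:113420867-113420928, minus strand) and Igha (chr12:113258768-113258829, minus strand), with the differing bases in capitals, 43 of 62 bases being identical.
Ighm: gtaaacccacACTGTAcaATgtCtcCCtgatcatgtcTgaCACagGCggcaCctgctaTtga
Igha: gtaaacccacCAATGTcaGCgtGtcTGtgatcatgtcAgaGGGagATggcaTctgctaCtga
The membrane form of IgM instead continues into a membrane exon (chr12:113418953-113419068, minus strand), which encodes the transmembrane stretch.
Ighm membrane exon: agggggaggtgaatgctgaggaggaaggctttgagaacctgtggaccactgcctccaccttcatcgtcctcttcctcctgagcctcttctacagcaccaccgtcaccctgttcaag
Ighg2b and Ighg3, constant genes of one subclass family that differed in opposite directions, were identical at 76.6% of 989 aligned coding bases. In 60 bases of their first constant exon (chr12:113307844-113307903 and chr12:113361143-113361202, minus strand) 11 bases differ, in capitals.
Ighg2b: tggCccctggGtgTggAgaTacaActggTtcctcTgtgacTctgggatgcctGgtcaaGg
Ighg3: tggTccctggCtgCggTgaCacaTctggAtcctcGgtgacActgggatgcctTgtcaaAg
The lambda constant genes Iglc2 and Iglc3 were identical at 96.5% of 314 bases, and the second coding exons of the kappa V genes Igkv1-110 and Igkv1-117 at 96.8% of 313, which shows how alike the members of these pairs are. The deposited counts of all 4 were whole numbers in every library. For each pair the 60 bases with the most differences are shown, 5 in each window, in capitals (chr16:19198776-19198835 and chr16:19065605-19065664, minus strand, then chr6:68271038-68271097 and chr6:68121598-68121657, plus strand).
Iglc2: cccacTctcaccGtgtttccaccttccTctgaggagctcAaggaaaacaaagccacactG
Iglc3: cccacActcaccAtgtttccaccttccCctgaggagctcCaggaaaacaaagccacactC
Igkv1-110: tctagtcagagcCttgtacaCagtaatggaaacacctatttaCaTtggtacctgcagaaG
Igkv1-117: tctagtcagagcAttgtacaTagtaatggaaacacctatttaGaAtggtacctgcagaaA

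Libraries held 8757280 to 9315370 expected counts in the rapamycin group and 9712671 to 11393317 in the untreated group. A floor of 3 counts then equals 0.260 to 0.348 CPM, that is, counts scaled to library sizes adjusted for composition. Defining T cell transcripts were abundant in both groups. Cd3e, a subunit of the T cell receptor complex, averaged 347.6 ± 3.15 CPM in rapamycin libraries and 356.6 ± 3.55 CPM in untreated libraries (SD, n = 3 each), and was not called. Cd4 averaged 687.2 ± 9.29 CPM in rapamycin libraries and 715.9 ± 11.6 CPM in untreated libraries, a log2 fold change of −0.06 ± 0.02 that passed the threshold. In the comparison of all 11950 genes that passed a filter on low counts, 23.3% were lower and 24.1% higher with rapamycin at an adjusted p under 0.05 (quasi-likelihood test of edgeR, adjusted over these genes by the Benjamini-Hochberg method, used throughout), and the median log2 fold change, rapamycin over untreated, was −0.01. Every rapamycin library lay below every untreated library for 26.8% of these genes.

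Immunoglobulin genes took up 0.0840, 0.0838 and 0.0834% of all counts in the rapamycin libraries, against 0.124, 0.125 and 0.126% in the untreated libraries. The groups did not overlap, and the libraries within a group were close to each other. The exact two-sided permutation test gave p = 0.1, the smallest that 3 libraries against 3 allow, and 0.15 after adjustment over the 12 library measures compared. In bulk RNA, fewer cells that carry these transcripts and less of them per cell cannot be told apart. The fold changes of single genes were uneven, and among the constant genes and Jchain those of Ighg2b, Igha and Jchain were the largest.

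**Figure D1:**
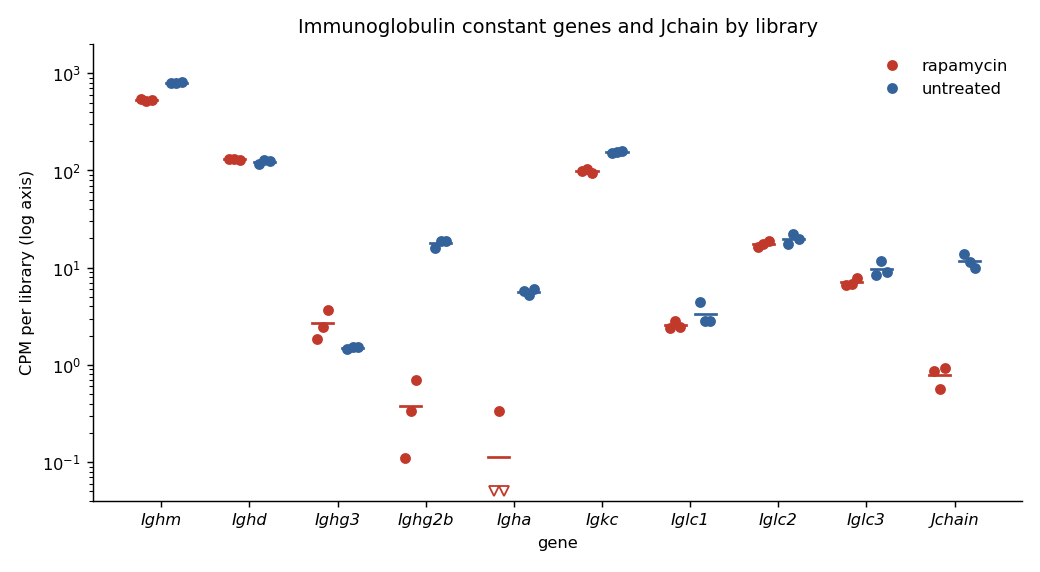
Level of each constant gene and of Jchain in CPM per library on a log axis, with rapamycin libraries (red) left of untreated libraries (blue). Short lines are means of 3 libraries, and open triangles at the foot mark the 2 rapamycin libraries in which Igha was at 0. Ighg2b, Igha and Jchain stand furthest apart between the groups, and Ighd and Iglc2 overlap.

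Among switched heavy chain genes, Ighg2b, the constant region of IgG2b (ENSMUSG00000076613, chromosome 12), had 1, 3 and 6 counts in the rapamycin libraries, against 183, 199 and 184 counts in the untreated libraries. All 3 untreated libraries held many times the counts of any rapamycin library. Per effective read the untreated group was 47.3 times the rapamycin group, with a 95% counting interval of 25.5 to 99.2 that covers counting error only. The log2 fold change was −5.52 ± 0.26 (SE), with an adjusted p of 1.41e-26. Ighg2b reached the filter on low counts, at 1.05 CPM in at least 3 libraries, through the untreated libraries alone, as did Igha and Jchain, and a gene that enters so had to differ.

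Igha, the constant region of IgA (ENSMUSG00000095079, chromosome 12), was at 0, 3 and 0 counts in the rapamycin libraries, against 67, 55 and 59 counts in the untreated libraries. Its transcripts in the rapamycin group were thus no more than the floor of 3 counts in any library. The untreated group was 50.4 times the rapamycin group per effective read, with a counting interval of 17.0 to 247. Its adjusted p of 5.95e-15 carries the limit of the filter just given.

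Ighg3, the constant region of IgG3 (ENSMUSG00000076615, chromosome 12), went the other way. It had 17, 22 and 32 counts in the rapamycin libraries, against 17, 16 and 15 counts in the untreated libraries. Scaled for depth the rapamycin libraries lay above the untreated ones, at 2.68 ± 0.94 CPM in rapamycin libraries and 1.51 ± 0.03 CPM in untreated libraries (SD, n = 3 each). The log2 fold change was 0.82 ± 0.34 and the adjusted p 0.0397, so Ighg3 was the only member called higher. This call held in 5 of 15 alternative settings. It was lost when any library but rapamycin library 1 was left out, with adjusted p-values of 0.0616 to 0.302, the highest without rapamycin library 3.

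The genes for IgG2c and IgG1 had too few counts to be members. Ighg2c had 1 count in each rapamycin library, against 1, 0 and 2 in the untreated libraries, and the 4 counts of Ighg1 were all in untreated library 3. Ighe, for IgE, was at 0 in all 6 libraries, which allows up to 3 counts in each. At this depth no difference was detectable in these 3 genes.

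The ratio of Ighg2b to Ighg3 turned over between the groups. On the log2 scale, with 1 count added to each gene, it was −3.17, −2.52 and −2.24 in the rapamycin libraries, against 3.35, 3.56 and 3.53 in the untreated libraries (exact two-sided permutation p = 0.1). Ighg3 thus had more counts than Ighg2b in each rapamycin library, and fewer in each untreated library. Per length, in TPM (abundance scaled for transcript length and depth), Ighg3 averaged 3.35 ± 1.14 in rapamycin libraries and 1.32 ± 0.42 in untreated libraries. Ighg2b averaged 0.557 ± 0.505 TPM in rapamycin libraries and 26.5 ± 2.61 TPM in untreated libraries, and Igha 0.187 ± 0.323 TPM in rapamycin libraries and 8.25 ± 0.559 TPM in untreated libraries (SD, n = 3 each). The order among these genes was therefore Ighg3, Ighg2b, Igha in the rapamycin group, where the last 2 did not differ beyond their spread, and Ighg2b, Igha, Ighg3 in the untreated group.

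Of the unswitched genes, Ighm, the constant region of IgM (ENSMUSG00000076617, chromosome 12, 113418558 to 113422730), was the most abundant of the members, with 4941, 4606 and 4577 counts in the rapamycin libraries, against 9063, 8297 and 7938 counts in the untreated libraries. Its level was 529.8 ± 10.03 CPM in rapamycin libraries and 794.1 ± 11.5 CPM in untreated libraries (SD, n = 3 each). It fell by 0.58 ± 0.02 on the log2 scale, with an adjusted p of 4.47e-32. Ighd, the constant region of IgD (ENSMUSG00000104213, chromosome 12, 113406604 to 113416324), had 1193, 1164 and 1103 counts in the rapamycin libraries, against 1346, 1358 and 1226 counts in the untreated libraries. Its groups overlapped at 129.8 ± 1.79 CPM in rapamycin libraries and 123.5 ± 6.32 CPM in untreated libraries (SD, n = 3 each), and it was not called, with a log2 fold change of 0.07 ± 0.04 and an adjusted p of 0.145. It passed the threshold as higher on TPM or with a correction for gene length, with log2 fold changes of 0.15 to 0.18.

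Although both genes are read from one primary transcript in B cells, the counts of Ighm over those of Ighd were 4.14, 3.96 and 4.15 in the rapamycin libraries, against 6.73, 6.11 and 6.48 in the untreated libraries. The groups did not overlap (exact two-sided permutation p = 0.1). The level per length was 544.2 ± 10.7 TPM for Ighm and 120.0 ± 1.13 TPM for Ighd in rapamycin libraries, and 765.7 ± 11.1 TPM for Ighm and 105.7 ± 4.54 TPM for Ighd in untreated libraries (SD, n = 3 each).

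The switched genes as a share of all heavy chain constant counts were 0.293, 0.483 and 0.665% in the rapamycin libraries, against 2.50, 2.72 and 2.74% in the untreated libraries. The highest rapamycin library was thus well below the lowest untreated one. As sums of counts, the switched class fell by 2.98 ± 0.16 and the unswitched class by 0.48 ± 0.02 on the log2 scale, with adjusted p-values of 9.26e-24 and 1.17e-28. Neither class fell throughout. Ighg3, with a log2 fold change of 0.82, and Ighd, with 0.07 and not called, did not fall. Most switched counts of each rapamycin library were those of Ighg3, and most of each untreated library those of Ighg2b. The fall of the switched class is thus largely that of Ighg2b and Igha given above, and its adjusted p is not separate evidence. The difference between the classes themselves, as the log2 ratio of switched to unswitched counts, was −7.72 ± 0.58 in rapamycin libraries and −5.19 ± 0.07 in untreated libraries (SD, n = 3 each, exact two-sided permutation p = 0.1, adjusted p = 0.15).

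**Figure D2:**
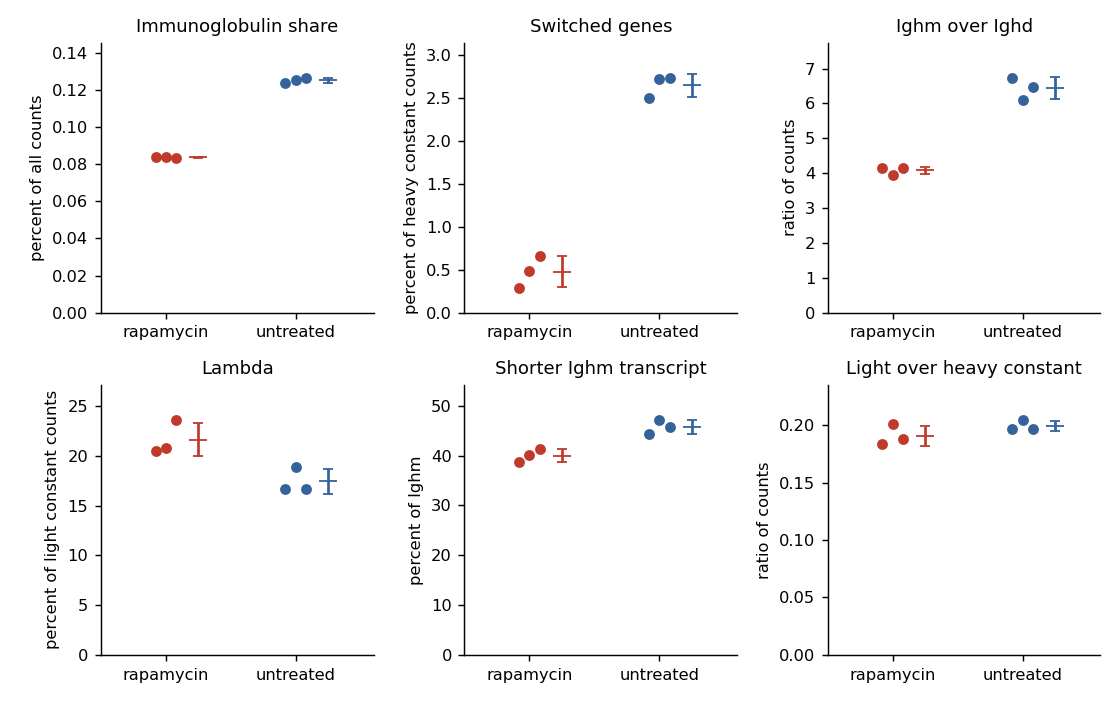
Each panel gives 1 measure per library, with points for the 3 rapamycin libraries (red) left of the 3 untreated libraries (blue) and bars for the mean ± SD. The immunoglobulin share, the switched share, Ighm over Ighd and the shorter Ighm transcript are lower in every rapamycin library than in every untreated one, the lambda share is higher, and light over heavy constant counts overlap.

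The deposited tables give for each gene an average transcript length weighted by abundance, from which the share of the shorter, secreted transcript was worked out for genes with 1 secreted and 1 membrane form (a measure chosen after its values were seen). For Ighm, with forms of 1493 and 1698 bases, the secreted form made up 38.6, 40.1 and 41.3% in the rapamycin libraries, against 44.3, 47.1 and 45.8% in the untreated libraries. The groups differed by −5.73 percentage points without overlap (exact two-sided permutation p = 0.1), and by −5.03 to −6.45 points when any 1 library was left out. Most Ighm transcripts in both groups were therefore assigned to the membrane form.

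In the untreated libraries, Ighg2b was assigned almost wholly to its secreted form, at 99.1, 99.7 and 98.8%, and so was Igha, at 98.3, 96.9 and 95.3%. The rapamycin libraries had too few counts of either gene to give a share. For Ighg3 the secreted share was 88.6, 67.2 and 78.5% in the rapamycin libraries, against 80.4, 0 and 44.3% in the untreated libraries, from 15 to 32 counts a library, and the groups overlapped. Ighd was assigned to its shorter form at 3.84 ± 0.59% in rapamycin libraries and 2.87 ± 2.14% in untreated libraries (SD, n = 3 each, exact two-sided permutation p = 0.6).

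Jchain, the joining chain of polymeric IgM and IgA (ENSMUSG00000067149, chromosome 5, 88519809 to 88527891), had 8, 5 and 8 counts in the rapamycin libraries, against 158, 119 and 97 counts in the untreated libraries. It fell by 3.87 ± 0.25 on the log2 scale, with an adjusted p of 3.41e-20 that carries the limit of the filter given for Ighg2b. Set against the light chain gene Igkc in the same library, its log2 ratio was −6.81 ± 0.40 in rapamycin libraries and −3.74 ± 0.26 in untreated libraries (SD, n = 3 each, exact two-sided permutation p = 0.1). Jchain thus differed by more than the light chains did.

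Of the light chains, Igkc, the kappa constant gene (ENSMUSG00000076609, chromosome 6, 70726435 to 70726966), had 898, 921 and 819 counts in the rapamycin libraries, against 1748, 1644 and 1543 counts in the untreated libraries. It fell by 0.65 ± 0.04 on the log2 scale, with an adjusted p of 1.20e-20. With a correction for gene length, in which a smooth trend of the counts of all genes with length was taken out of each library, the log2 fold change was −0.26 and still past the threshold.

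The lambda constant genes had smaller fold changes. Iglc2 had 149, 157 and 164 counts in the rapamycin libraries, against 203, 231 and 193 in the untreated libraries, with overlapping groups once scaled for depth and an adjusted p of 0.242. Iglc1 had 22, 25 and 21 counts in the rapamycin libraries, against 51, 30 and 28 in the untreated libraries (log2 fold change −0.41 ± 0.28, adjusted p = 0.236). Iglc3 had 61, 60 and 68 counts in the rapamycin libraries, against 97, 123 and 88 in the untreated libraries, and fell by 0.45 ± 0.16 on the log2 scale (adjusted p = 0.0203). That call did not hold with the length correction, where the log2 fold change was −0.03, nor with DESeq2 (adjusted p = 0.0845). It was also lost with limma on log2 TPM (adjusted p = 0.185 and 0.186 for 2 added constants). Leaving out rapamycin library 1 or 2 or untreated library 2 lost it too, with adjusted p-values of 0.0619 to 0.205. The 3 genes as a sum fell by 0.27 ± 0.09 (adjusted p = 0.0093), and this call too was lost with the length correction, where the log2 fold change was 0.12.

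Per length, Igkc stood at 496.6 ± 17.4 TPM in rapamycin libraries and 696.3 ± 13.0 TPM in untreated libraries, followed by Iglc2 at 71.2 ± 4.80 TPM in rapamycin libraries and 73.5 ± 7.68 TPM in untreated libraries. Iglc3 was next at 49.7 ± 5.27 TPM in rapamycin libraries and 59.6 ± 10.8 TPM in untreated libraries, and Iglc1 last at 17.7 ± 1.37 TPM in rapamycin libraries and 20.6 ± 5.55 TPM in untreated libraries (SD, n = 3 each). The order was the same in both groups, and in the untreated libraries the gap between Iglc2 and Iglc3 was smaller than their SDs added together.

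Lambda made up 20.5, 20.8 and 23.6% of light chain constant counts in the rapamycin libraries, against 16.7, 18.9 and 16.7% in the untreated libraries (exact two-sided permutation p = 0.1, adjusted p = 0.15). Kappa was the main light chain in every library. Light chain counts over heavy chain constant counts were 0.191 ± 0.009 in rapamycin libraries and 0.199 ± 0.004 in untreated libraries (SD, n = 3 each), with overlapping groups (exact two-sided permutation p = 0.3). On TPM in place of counts the difference between the group means turned in direction.

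**Figure D3:**
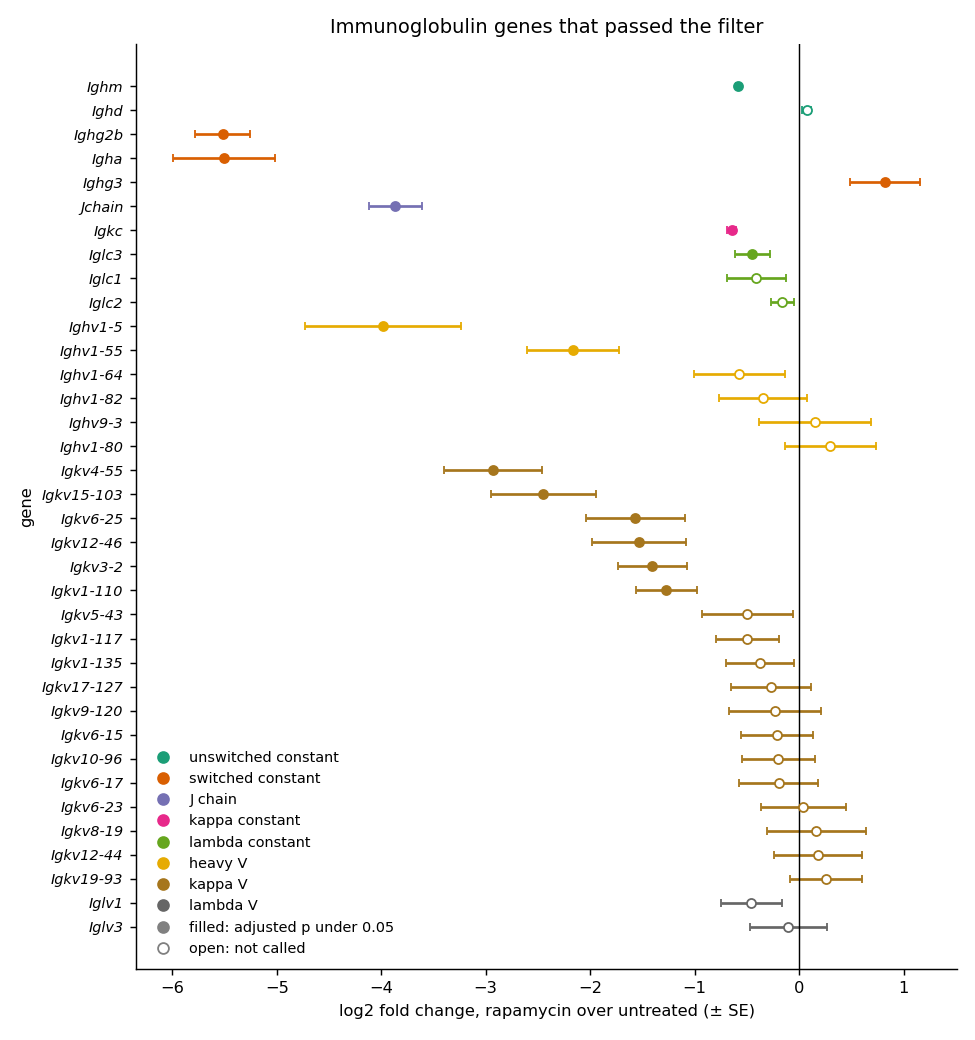
Log2 fold change, rapamycin over untreated, with SE bars for the 36 genes that passed the filter on low counts, grouped by class. Filled points passed an adjusted p of 0.05 and open points did not: 14 genes are filled to the left of 0 and 1, Ighg3, to the right.

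Across the 112 genes, 36 passed the filter on low counts, of which 14 were lower, 1 higher and 21 not called, beside 23.3% lower and 24.1% higher among all genes tested. Their median log2 fold change was −0.43, against −0.01 over all genes tested. This shift did not hold with the length correction, where the middle values were −0.0095 (Iglv1) and 0.006 (Iglc1). With it 10 members turned in direction, and 11 were called lower and 2 higher. Of the 14, 7 passed the filter through the untreated libraries alone (Ighg2b, Igha, Jchain, Ighv1-5, Igkv4-55, Igkv6-25 and Igkv15-103) and so had to differ, which makes these counts no evidence about the class. Ighv1-55, Igkv12-46 and Igkv3-2 reached the minimum in all 3 untreated libraries, but in only 1, 1 and 2 rapamycin libraries in that order. The 76 genes that did not pass were all V genes, with totals of 10 to 62 counts, and together held 770.8 counts in the rapamycin group, against 1377.6 counts in the untreated group. At the lower edge of the rule stood Ighv1-66, Ighv11-2 and Ighv2-3 with 10 counts, and just outside it 8 V genes with 9.

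Mean CPM, which carries no length correction, was lower with rapamycin for 85 of the 112 genes and higher for 27. Every rapamycin library lay below every untreated one for 32 of them and above for 4, and in the other 76 the libraries overlapped. Among all genes tested, 26.8% lay below in this way, and the share that lay above was not worked out. Of the 36 that passed the filter, 16 lay below, or 44.4%, beside 26.8% of all genes tested, with the same limit of the filter. The 4 were Ighg3 and the V genes Igkv19-93, Igkv3-4 and Ighv2-9.

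**Figure D4:**
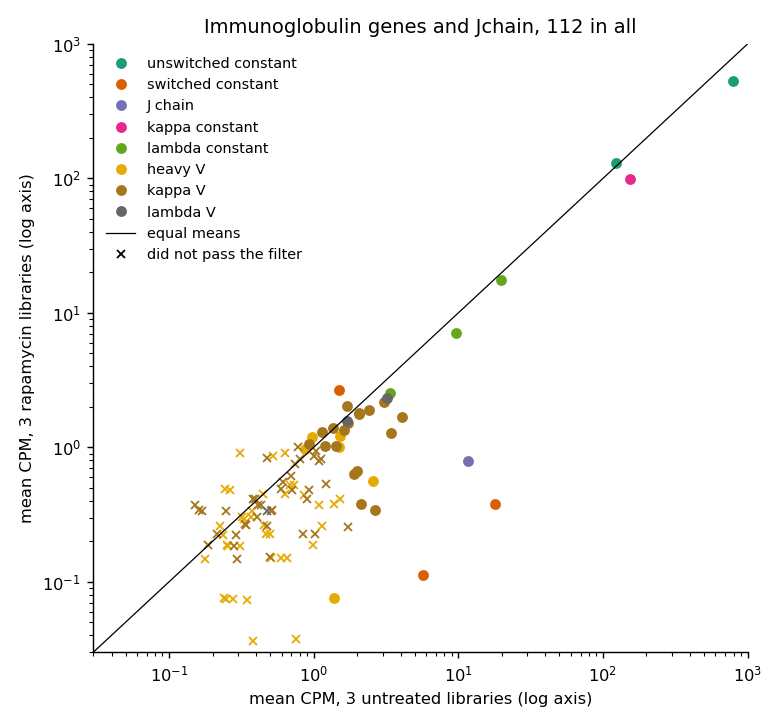
Mean CPM in the 3 rapamycin libraries against mean CPM in the 3 untreated libraries for all 112 genes, on log axes, coloured by class, with crosses for the 76 that did not pass the filter. Points under the line are lower with rapamycin: 85 lie under it, and Ighg2b, Igha and Jchain lie furthest from it among the constant genes and Jchain.

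The heavy chain V genes encode most of the antigen-binding part of the heavy chain. Their 43 members held 165.8, 158 and 120 counts in the rapamycin libraries, against 365.6, 258 and 287 counts in the untreated libraries. As a class they fell by 0.78 ± 0.11 on the log2 scale (adjusted p = 1.18e-08), or by 0.32 with the length correction. Set against the unswitched constant counts, they amounted to 2.52 ± 0.35% in rapamycin libraries and 3.11 ± 0.42% in untreated libraries (SD, n = 3 each, exact two-sided permutation p = 0.3), so the ratio of V to constant counts overlapped between the groups.

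Among the 5 most abundant heavy V genes, Ighv1-55 had 4, 10 and 1 counts in the rapamycin libraries, against 31, 30 and 21 counts in the untreated libraries, and fell by 2.16 ± 0.44 on the log2 scale (adjusted p = 3.90e-05). Its call has a limit too, since it reached the minimum of the filter in 1 rapamycin library and in all 3 untreated ones. Ighv1-55 was the top heavy V gene of all 3 untreated libraries, while the top one of the rapamycin libraries was Ighv1-64, Ighv9-3 and Ighv1-82 in turn. Ighv1-82 had 12, 4 and 16 counts in the rapamycin libraries, against 24, 12 and 13 in the untreated libraries. Ighv1-64 had 18, 5 and 4 counts in the rapamycin libraries, against 17, 17 and 14 in the untreated libraries. Neither was called, with adjusted p-values of 0.528 and 0.295, and single rapamycin libraries stood out in both.

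Ighv1-80 had 13, 12 and 7 counts in the rapamycin libraries, against 12, 11 and 8 in the untreated libraries (log2 fold change 0.30 ± 0.44, adjusted p = 0.605). Ighv8-12, which did not pass the filter, had 4, 4 and 3 counts in the rapamycin libraries, against 24, 9 and 16 in the untreated libraries. The other heavy V gene called lower, Ighv1-5, had 0, 1 and 1 counts in the rapamycin libraries, against 18, 14 and 12 in the untreated libraries. Its adjusted p of 8.55e-06 is that of a gene that passed the filter through the untreated libraries alone.

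Single heavy V genes varied from one rapamycin library to the next. Over genes with at least 15 counts in a group, the variance between libraries was 2.72 times counting noise for 8 genes in the rapamycin group and 0.94 times for 23 genes in the untreated group. For kappa V genes it was 1.65 times for 26 genes in the rapamycin group and 1.27 times for 40 genes in the untreated group. The gene sets differ with depth, so these values are a description.

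The 56 kappa V genes held 326, 400 and 346 counts in the rapamycin libraries, against 706, 637 and 568 counts in the untreated libraries. As a class they fell by 0.58 ± 0.07 on the log2 scale (adjusted p = 2.06e-10), a call lost with the length correction, where the log2 fold change was −0.12. Their counts amounted to 40.7 ± 3.82% of the kappa constant counts in rapamycin libraries and 38.7 ± 1.79% in untreated libraries (SD, n = 3 each, exact two-sided permutation p = 0.5).

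Of the 5 most abundant kappa V genes, Igkv1-110 had 17, 14 and 14 counts in the rapamycin libraries, against 51, 48 and 32 in the untreated libraries, and fell by 1.27 ± 0.29 on the log2 scale (adjusted p = 2.40e-04). Igkv3-2 had 10, 15 and 9 counts in the rapamycin libraries, against 35, 31 and 42 in the untreated libraries, and fell by 1.41 ± 0.33 (adjusted p = 3.30e-04). Igkv3-2 reached the minimum of the filter in 2 rapamycin libraries and in all 3 untreated ones, which limits its call. Igkv1-117, whose second coding exon nearly matches that of Igkv1-110, had 13, 26 and 19 counts in the rapamycin libraries, against 32, 38 and 28 in the untreated libraries. It was not called (adjusted p = 0.183), and whether its change differed from that of Igkv1-110 was not tested.

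Igkv1-135 had 12, 20 and 18 counts in the rapamycin libraries, against 31, 29 and 18 in the untreated libraries. Igkv10-96 had 9, 19 and 20 counts in the rapamycin libraries, against 24, 20 and 22 in the untreated libraries. Both overlapped between the groups, with adjusted p-values of 0.366 and 0.673. The other kappa V genes called lower were Igkv4-55, Igkv12-46, Igkv6-25 and Igkv15-103, with log2 fold changes of −2.93, −1.54, −1.57 and −2.45.

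In all, 8 of the 26 V genes tested were lower, with log2 fold changes of −3.98 to −1.27, beside 23.3% of all genes tested. Of these 8, 4 passed the filter through the untreated libraries alone. Ighv1-55 and Igkv12-46 reached its minimum in 1 rapamycin library and Igkv3-2 in 2, against all 3 untreated libraries. The rapamycin libraries alone would thus not have passed them either, and the count says nothing of V genes in general. The other 18 were not called, with log2 fold changes of −0.57 to 0.30. With the length correction 6 of the 8 were still called.

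The 3 lambda V genes held 45, 30 and 38 counts in the rapamycin libraries, against 63, 60 and 48 in the untreated libraries, and their sum was not called (log2 fold change −0.34 ± 0.22, adjusted p = 0.197). Iglv1 had 23, 20 and 19 counts in the rapamycin libraries, against 38, 36 and 28 in the untreated libraries (adjusted p = 0.196). Iglv3 had 17, 8 and 17 counts in the rapamycin libraries, against 20, 20 and 14 in the untreated libraries (adjusted p = 0.848). Iglv2 had 5, 2 and 2 counts in the rapamycin libraries, against 5, 4 and 6 in the untreated libraries, and was not tested. Iglv1 was the most abundant of the 3 in every library.

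V genes fall into families by sequence. The largest, Ighv1, had 27 members that summed to 11.3 ± 0.93 CPM in rapamycin libraries and 19.6 ± 2.50 CPM in untreated libraries (SD, n = 3 each). Of 19 families with 2 or more members, every rapamycin library lay below every untreated one in 10, and 9 overlapped. Among all genes tested, taken singly and not as sums, 26.8% lay below in this way. The mean was higher with rapamycin in 2 families, Ighv2 and Igkv13, both with overlapping libraries. For Ighv8 the log2 ratio of mean CPM was −1.96, and for Igkv6, with 7 members, it was −0.33. None of these family values carries the length correction, which made the falls of the heavy V and kappa V sums smaller.

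**Figure D5:**
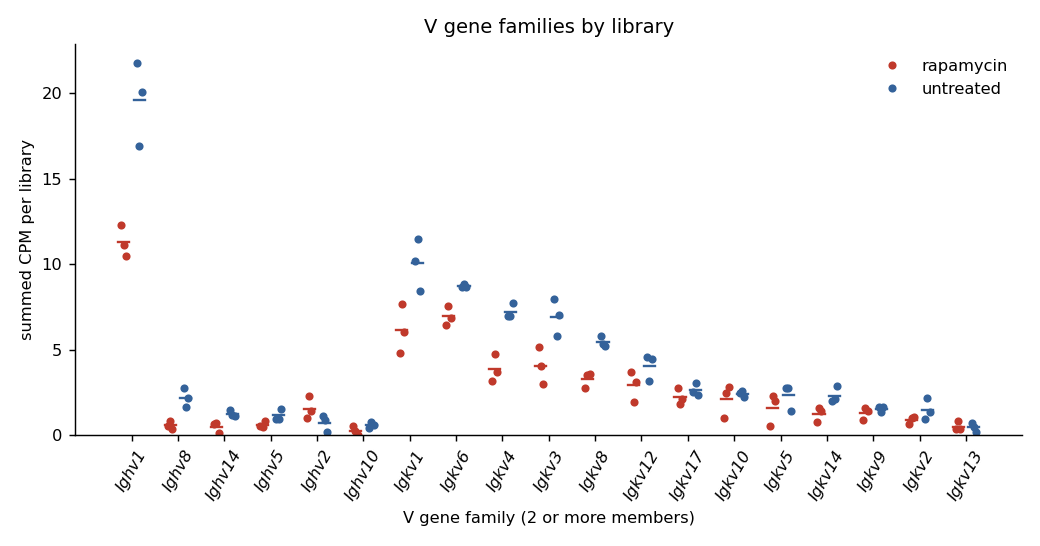
Summed CPM per library of each V gene family with 2 or more members, heavy chain families on the left and kappa families on the right, with rapamycin libraries (red) left of untreated libraries (blue) and lines at the means. In 10 of the 19 families all rapamycin points lie below all untreated points, as did 26.8% of all genes tested singly. In Ighv2 and Igkv13 the rapamycin mean is the higher.

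Place in the locus separated the kappa V genes little. Ordered by distance from Igkc, 3 groups of genes, nearest, middle and farthest, had log2 ratios of mean CPM, rapamycin over untreated, of −0.56, −0.55 and −0.60, and in each group the rapamycin libraries lay below the untreated ones. For heavy V genes ordered by distance from Ighm the ratios were −0.74, −1.15 and −0.47, and in the farthest group, 1915 to 2532 kb away, the libraries overlapped. These ratios were not tested. They carry no length correction, with which the sum of all kappa V members was −0.12 and that of all heavy V members −0.32.

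V genes were spread over the loci in both groups. Of the heavy V genes, pseudogenes included, 54, 59 and 52 had at least 1 count in the rapamycin libraries, against 66, 59 and 60 in the untreated libraries. The top heavy V gene took 6.70 to 10.7% of heavy V counts in the rapamycin libraries, against 6.73 to 10.3% in the untreated libraries. For kappa, 66, 71 and 64 genes had at least 1 count in the rapamycin libraries, against 71, 70 and 64 in the untreated libraries, although the untreated libraries held more counts. The top kappa V gene took 5.38 to 6.18% in the rapamycin libraries, against 6.95 to 7.19% in the untreated libraries. At this depth 1 count decides whether a gene is seen.

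The 321 genes of the immunoglobulin types outside the rule held 354.6 counts in all, and 225 of them were at 0 in all 6 libraries. None of the 164 pseudogenes reached 10 counts. The 33 D and J segments were at 0 throughout, but the longest has 54 bases and all had an effective length of 0 in the deposited tables, so that no count could be assigned to them. At the tolerance of 0.005, 108 of the 112 members had whole counts in all 6 libraries, so few reads were divided between members.

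Markers of the cell types that carry antibody transcripts were set beside these values. Counts of called markers, here and below, are to be read beside 23.3% lower and 24.1% higher among all genes tested. Of 20 B cell markers tested, 7 were lower and 13 not called, with a median log2 fold change of −0.09, and their summed level was 1196 to 1265 CPM in rapamycin libraries and 1311 to 1370 CPM in untreated libraries. Cd37, Cd79b, Cd72 and Ly6d had log2 fold changes of −0.31, −0.28, −0.39 and −0.40. With the length correction 4 of the list were lower, without Cd79b (−0.09, adjusted p = 0.186) and Ly6d (−0.08, adjusted p = 0.5), and on TPM 2 were lower. Cd79b encodes a signalling subunit of the B cell receptor. Its partner Cd79a was not called (log2 fold change −0.09, adjusted p = 0.108). Every rapamycin library was thus below every untreated library in the summed B cell level, and the part of B cells in the immunoglobulin result was not tested.

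Of 20 plasma cell genes, 16 were tested, of which 6 were lower, 2 higher and 8 not called, with a median log2 fold change of −0.10. Among all genes tested, 23.3% were lower and 24.1% higher. The plasma cell genes had a summed level of 954.4 to 966.3 CPM in rapamycin libraries and 939.6 to 947.1 CPM in untreated libraries. Sdc1, the surface marker CD138, had 6, 2 and 4 counts in the rapamycin libraries, against 16 in each untreated library, and fell by 1.72 ± 0.50 on the log2 scale (adjusted p = 0.00334). Sdc1 too passed the filter on low counts through the untreated libraries alone and so had to differ. Xbp1, a transcription factor of the secretory program, fell by 0.31 ± 0.07, and Ssr4, a subunit of the translocon-associated complex, fell by 0.41 ± 0.08, a call lost with the length correction (log2 fold change −0.12, adjusted p = 0.228). With that correction or on TPM 3 of the listed genes were lower in place of 6, and without untreated library 2 also 3. Prdm1, the transcription factor Blimp-1, which T cells also express, rose by 1.07 ± 0.13, and Hsp90b1, a chaperone of the endoplasmic reticulum found in all cells, rose by 0.18 ± 0.03. Tnfrsf17, the plasma cell receptor BCMA, was at 0 in all 6 libraries. Many of the listed genes are also expressed in T cells, and the part of plasma cells in the result was not tested.

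Of 10 switching and germinal centre genes tested, 2 were lower (Apex1 and Msh6, which act in DNA repair), 1 was higher (Rif1, which protects broken DNA ends) and 7 were not called, with a median of −0.01. Among all genes tested, 23.3% were lower and 24.1% higher. With DESeq2, on TPM, or without rapamycin library 1 or untreated library 2, 1 of these genes was lower in place of 2. Of 3 early B cell genes tested, 1 was lower, namely Dntt, the enzyme that adds untemplated bases at V, D and J joints and also acts in T cell precursors, at 8.65 CPM in rapamycin libraries and 16.8 CPM in untreated libraries. The surrogate light chain genes Igll1 and Vpreb2 were at 0 in all 6 libraries. Of 7 genes for Fc and immunoglobulin receptors tested, 2 were lower, 1 higher and 4 not called, the lower ones being Fcer1g, a signalling chain of Fc receptors, and the cytosolic antibody receptor Trim21, and the higher one Fcgrt, the neonatal Fc receptor. The call of Fcgrt (adjusted p = 0.0484) was lost without composition factors or a filter, with DESeq2, voom, TPM or the replicate block, and when any of 4 libraries was left out (rapamycin 2 or 3, untreated 2 or 3).

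Markers of other cells were examined in the same way, again beside 23.3% lower and 24.1% higher among all genes tested. Of 10 myeloid markers tested, 7 were lower and 3 not called, with a median log2 fold change of −1.03 and a summed level of 153 to 157 CPM in rapamycin libraries and 223 to 231 CPM in untreated libraries. Lyz2, the lysozyme of myeloid cells, fell by 2.20 ± 0.16. Of 8 NK cell markers tested, 3 were lower and 1 higher, of 4 dendritic cell markers 3 were lower, of 5 class II genes 3 were lower, of 3 erythroid genes 2 were lower, and both CD8 T cell markers were higher. The CD8 markers summed to 87.95 to 91.03 CPM in rapamycin libraries and 19.07 to 20.45 CPM in untreated libraries. Their median log2 fold change of 2.38 was the largest of any list. The lower calls among class II genes were all lost on TPM and with the length correction, which called 2 of these genes higher. The higher call among NK genes was lost with DESeq2 and without rapamycin library 1. On TPM and with the length correction 2 NK genes were higher, and without a filter 5 were lower. With DESeq2, on TPM or at a minimum of 2 CPM, 1 erythroid gene was lower in place of 2. On TPM 1 dendritic gene was higher. Of 12 naive CD4 T cell genes, 6 were lower and 5 higher, with a summed level of 7742 to 7828 CPM in rapamycin libraries and 7353 to 7429 CPM in untreated libraries. The part of these cells in the immunoglobulin values was not tested.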

How the data were processed

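The submitters' processing notes name STAR, RSEM and mm10 for the 6 poly(A) libraries; the versions are not given in the sources used here. The libraries, per the labels' protocols, were made with a directional kit, and whether counting used strand is not stated. The deposited expected counts are RSEM's estimates, in which the authors' processing divides reads shared between genes. The deposited TPM and FPKM values are scaled by the authors for effective length and depth, and FPKM was not used further. The deposited length and effective length were used to estimate transcript shares. Gene types, positions and sequences came from GENCODE vM21 (GRCm38).

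The genes, classes and marker lists were chosen with earlier results of these data known. Expected counts were rounded, filtered with filterByExpr, scaled with TMM factors and tested over all 11950 genes with edgeR 4.0.16 (quasi-likelihood, robust; R 4.3.3) and Benjamini-Hochberg adjustment at 0.05. CPM uses effective library sizes. Class sums were tested in a second fit with the members replaced by their sums. Library measures were compared with exact permutation tests (scipy 1.17.1), and figures drawn with matplotlib 3.10.9. The text names all constant genes and Jchain, the 5 heavy, 5 kappa and 3 lambda V genes with the largest totals, and of a marker list up to 4 called genes, those with the smallest adjusted p. Other V genes, Cd3e, Cd4, Cd79a, Sdc1 and genes at 0 were named after their values were seen. A few genes are not reported here. Libraries of a group differed by 1.9 and 1.93 times counting noise (chi-square per degree of freedom, rapamycin and untreated), and by 1.74 to 2.00 for each pair of libraries, so no pair agreed within counting noise. The alternatives were RLE and no composition factors, 2 other filters, DESeq2 1.42.0, limma 3.58.1 on voom weights or log2 TPM, offsets for length, a block for the replicate number, leaving out each library, TPM in place of counts, counts rounded down, a smaller added count, a rule of 50 counts and no pseudogenes. The procedure was tested on simulated data.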

Additional observations from a re-analysis of the deposited data

How the results depend on the processing

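The falls of Ighm, Igkc, Ighg2b, Igha and Jchain passed the threshold in all 16 alternative settings tried for each, with log2 fold changes of −0.63 to −0.48, −0.69 to −0.26, −6.25 to −4.19, −8.82 to −2.99 and −3.99 to −2.95 in that order of genes. Of these, Ighg2b, Igha and Jchain passed the main filter through the untreated libraries alone, so their calls carry the limit given above. The switched class sum, which largely repeats Ighg2b and Igha, ranged over −3.29 to −2.72 and the unswitched over −0.52 to −0.38. Between 10 and 21 members were called lower. The number called higher was 0 without composition factors, without a filter, with at least 2 CPM in at least 3 libraries, with DESeq2 and with voom, 3 on either TPM scale, 2 with the length offset, and 0 to 1 when a library was left out. The TPM scales moved the median of all genes to 0.09 and 0.10 and the share of higher calls to 70.1 and 70.3%, against 50.8%.

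With the length offset the kappa V sum was −0.12, the lambda V sum 0.12 and the lambda constant sum 0.12. The lambda constant sum was −0.26 with DESeq2, −0.15 on either TPM scale and −0.32 to −0.18 when a library was left out. Its call was lost in the first of these, on both TPM scales, with the length offset, and without rapamycin library 1 or untreated library 2. With the length offset 10 members turned in direction, none of them called in either setting. Among them were Iglc2 (0.21), Iglc1 (0.006), Ighv1-82 (0.12), Igkv1-135 (0.069), Igkv10-96 (0.26) and Iglv3 (0.35), and the other 4, all kappa V genes, had 0.19 to 0.26. Also turned in direction, and not called, were Iglv3 on TPM (0.047 and 0.045) and, with 1 library left out, Ighv1-82 (−0.777 to 0.045), Igkv10-96 (−0.409 to 0.106) and Iglv3 (−0.285 to 0.176). On TPM in place of counts the difference in immunoglobulin share was −0.0665 percentage points, in switched share −3.36 points, and in light over heavy constant 0.0140. The last of these turned in direction, from −0.00859 on counts. The causes were not tested.

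Replicate numbers did not pair the libraries (correlations of same-numbered deviations −0.025, −0.009 and −0.031). With the replicate number as a block, 14 members were called lower and 0 higher. V genes rest on 10 to 176 counts over 6 libraries, which limits what can be seen of any 1 of them.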
